A study of Mus musculus with 7 samples.

Results

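The type II cadherin cluster of mouse chromosome 15 was examined as a stretch of 10.8 Mb that holds Cdh6, Cdh9, Cdh10, Cdh12 and Cdh18. All binding events listed between positions 12800000 and 23600000 (mm9) were taken, in tables for the transcription factors FRA2, JUND and SOX2. They came to 132 of 137595 events, made up of 79 of 64579 FRA2 events, 38 of 46583 JUND events and 15 of 26433 SOX2 events. The stretch was chosen by its FRA2 and JUND reads in both cell lines, so every difference between the lines below is a description and carries no test.

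FRA2 and JUND were mapped by ChIP-seq in STHdhQ111 and STHdhQ7 cells, called Q111 and Q7 here, and SOX2 was mapped in Q7 alone. Q111 is homozygous for the expanded huntingtin allele (HdhQ111/Q111) and Q7 for the short allele (HdhQ7/Q7). Both are immortalised lines derived from the striatum of 129SvEv/CD1 embryos at day 14, used below passage 15, grown at 33 °C and held at 39 °C for the last 2 days. Each genotype is represented by 1 line and each antibody by 1 pooled sample per line, so genotype and line cannot be told apart and no spread between replicates can be given. Nor can more bound cells be told apart from more binding per cell. Expression was not measured in these tables, so the labelled cell type was not checked against markers.

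Type II cadherins are calcium-dependent adhesion proteins whose outermost domain pairs with the same or a related cadherin on the neighbouring cell, and neurons use combinations of them to sort into nuclei and to choose synaptic partners. Cdh6 marks the embryonic striatal primordium in the mouse, Cdh9 is known from hippocampal mossy fibre synapses, and Cdh10, Cdh12 and Cdh18 are expressed mainly in the nervous system. FRA2 and JUND are subunits of the dimeric factor AP-1, which binds the motif TGANTCA, and SOX2 is a factor of neural progenitors. In RefSeq's gene order for assembly GRCm38.p6 the genes follow one another as Cdh6, Cdh9, Cdh10, Cdh12 and Cdh18. Of the 6 protein-coding genes that start from Cdh6 to Cdh18, only Acot10, an acyl-CoA thioesterase gene, is not a cadherin. Drosha, which encodes the nuclease of microRNA maturation, precedes Cdh6, and Basp1, a gene of a growth cone protein, is found beyond Cdh18. Positions of events are on mm9, no annotation of that build was used here, and so no event is assigned to a gene.

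The promoter windows of these genes (RefSeq, GRCm38.p6, 250 bases before to 50 bases after the gene start) are shown for the 2 genes that share the longest identical run. All 5 cadherin genes had a window. None of the 5 held TGANTCA, which reads the same on both strands and was found in 7.81% of the 32851 windows of the mouse table, and none held ACAATG, a core of SOX sites searched on both strands and found in 12.6%. Among the 10 pairs of cadherin windows, the longest run was the 15 bases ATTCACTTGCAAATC, shared by Cdh6 and Cdh9 and by no other window of the table on either strand. It begins 18 bases before the gene start in Cdh6 and 209 bases before it in Cdh9, and is given in capitals.
Cdh6 (chr15:13173626-13173925, GRCm38.p6, minus strand): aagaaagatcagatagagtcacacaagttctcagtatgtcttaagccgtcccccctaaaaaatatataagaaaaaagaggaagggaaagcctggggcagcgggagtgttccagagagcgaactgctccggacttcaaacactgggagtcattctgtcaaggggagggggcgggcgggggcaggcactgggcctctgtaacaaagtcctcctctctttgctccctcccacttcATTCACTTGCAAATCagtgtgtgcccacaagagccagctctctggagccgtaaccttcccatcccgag
Cdh9 (chr15:16728665-16728964, GRCm38.p6, plus strand): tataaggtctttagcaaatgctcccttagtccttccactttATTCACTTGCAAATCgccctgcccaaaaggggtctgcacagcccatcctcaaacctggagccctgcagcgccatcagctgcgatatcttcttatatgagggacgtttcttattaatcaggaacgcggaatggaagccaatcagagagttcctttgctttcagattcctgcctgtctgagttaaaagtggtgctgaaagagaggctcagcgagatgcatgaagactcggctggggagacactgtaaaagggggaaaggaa
The second longest run, AGCCAATCAGAGA with 13 bases, was shared by Cdh9 and Cdh18 and occurred in 31 windows of 29 genes. The first run is shown because it was the longest found, and whether FRA2, JUND or SOX2 bound these windows was not analysed here.

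Reads in listed events, the only depth the tables give, were 3498922 for FRA2 in Q111, 3340554 for FRA2 in Q7, 1609483 for JUND in Q111, 1660158 for JUND in Q7 and 1193914 for SOX2 in Q7. In the cadherin stretch 4609.8 FRA2 reads in Q111 stood against 2477.8 in Q7, and 1890 JUND reads in Q111 against 972 in Q7. Folds are reads in Q111 over reads in Q7 after a library factor from the whole table was removed (1.03 for FRA2, 1.05 for JUND). For single events 0.5 reads were added to each, while folds of summed reads had none added. The range after a fold is its 95% interval, by the Clopper-Pearson method on the share of Q111 among the reads of an event. These ranges cover counting error only, and since PCR reads are not independent molecules they are too narrow.

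The stretch was poor in events. It held 7.31 FRA2 events per Mb (95% exact Poisson interval 5.79 to 9.12), against 44.8 per Mb over the rest of chromosome 15 and 23.8 per Mb over the other chromosomes, with lengths counted to the last listed event. JUND had 3.52 events per Mb (2.49 to 4.83), against 36.0 and 17.1 per Mb. For SOX2 the density was 1.39 per Mb (0.78 to 2.29), against 20.7 per Mb over the rest of chromosome 15 and 9.67 per Mb elsewhere. Events cluster, so these intervals, which treat them as independent, are too narrow.

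Within the stretch the events were gathered at its upper end. The last 2 of the 12 bins of 1 Mb held 54 FRA2, 27 JUND and 12 SOX2 events. Below them there were long gaps with no event in any of the 3 tables. The longest ran for 2.19 Mb between positions 18066931 and 20253517, followed by 1.18 Mb between 16547091 and 17731340 and by 1.07 Mb between 14523499 and 15596717. No JUND event was listed in 6 of the 12 bins, no SOX2 event in 7 and no FRA2 event in 1.

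**Figure D1:**
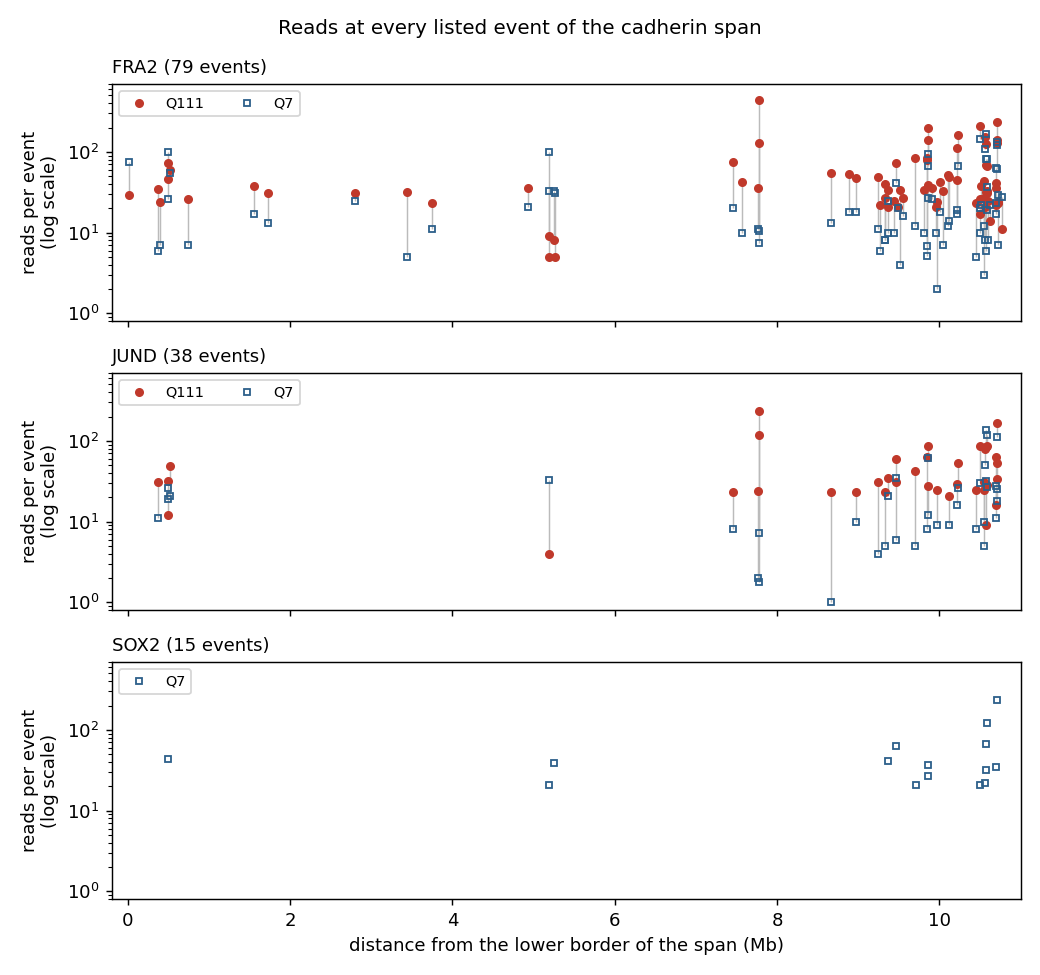
Reads per event on a log axis against the distance from the lower border of the stretch in Mb, for FRA2 (79 events), JUND (38) and SOX2 (15), with filled red circles for Q111, open blue squares for Q7 and grey lines joining both values of an event. Red points lie above blue ones in most of the upper end, with the widest separation at the site near position 20572986.

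FRA2 reads were higher in Q111 at most events, and these lay mainly in the upper end of the stretch. At least 2-fold more reads in Q111 than in Q7 were seen at 45 of 79 FRA2 events (57.0%). Of all listed FRA2 events, 24.2% lay past that limit. At least 2-fold fewer reads in Q111 were seen at 7 events (8.86%), against 22.6% of the table. The median log2 fold was 1.15, a 2.23-fold higher level in Q111, against -0.05 over the rest of chromosome 15 and 0.00 over the other chromosomes. Divided at 20 Mb, a point picked after the values were seen, the 62 events above it had 38 higher and 1 lower in Q111, with 4099.8 reads in Q111 and 1914.8 in Q7. The 17 events below it, over the longer part of the stretch, had 7 higher and 6 lower (35.3%), with 510 reads in Q111 and 563 in Q7. Past a limit of 4-fold there were 17 FRA2 events with more reads in Q111, 21.5% of those in the stretch against 9.76% of the table. When the libraries were scaled by control reads, 31 FRA2 events were at least 2-fold higher and 9 lower in Q111, in place of 45 and 7. The median log2 fold was then 0.79 in place of 1.15.

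JUND showed the same lean. At least 2-fold more reads in Q111 were found at 21 of 38 JUND events (55.3%), against 18.7% of the whole JUND table. At 3 events (7.89%) there were at least 2-fold fewer reads in Q111, against 25.0% of the table. The median log2 fold was 1.11, against -0.20 over the rest of chromosome 15 and -0.13 over the other chromosomes. A 4-fold limit was passed by 11 JUND events with more reads in Q111 (28.9%, against 7.42% of the table). When the libraries were scaled by control reads, the JUND split was 11 events higher and 6 lower in Q111, in place of 21 and 3, and the median log2 fold 0.45 in place of 1.11. With at least 50 reads required, 6 of 18 JUND events were higher and 0 lower. Scaling by control reads moves the median log2 fold of all events from 0.00 to -0.36 for FRA2 and from -0.13 to -0.79 for JUND.

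**Figure D2:**
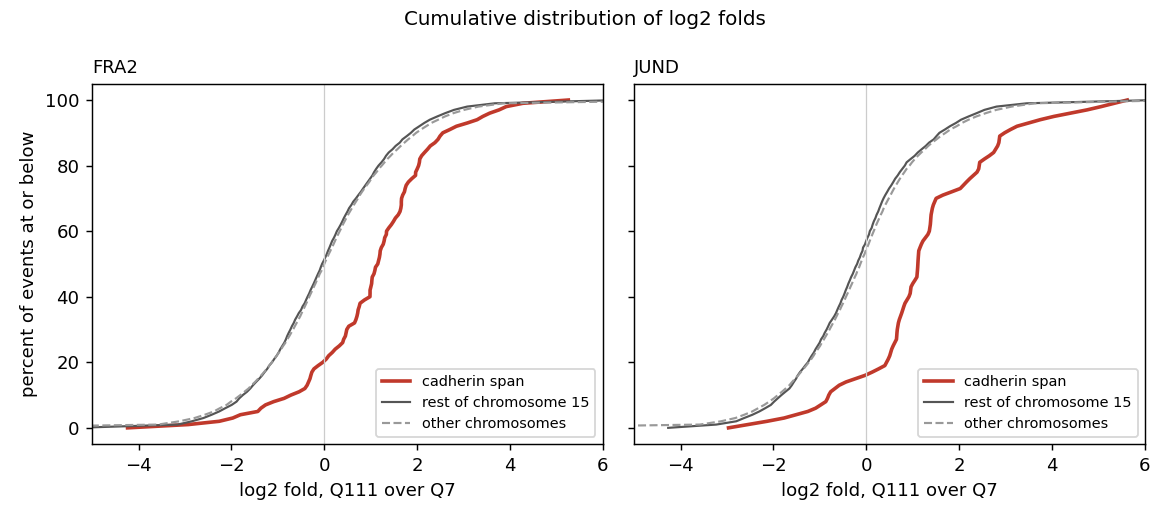
Percent of events at or below each log2 fold (Q111 over Q7) for the cadherin stretch (red), the rest of chromosome 15 (solid grey) and the other chromosomes (dashed grey), FRA2 on the left and JUND on the right. The median of the red curve lies at 1.15 for FRA2 and 1.11 for JUND.

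The deposited marks of presence in a line ran the same way and come from the same reads. FRA2 was marked present in Q111 alone at 47 events, in both lines at 24 and in Q7 alone at 8. For JUND the numbers were 24 in Q111 alone, 10 in both and 4 in Q7 alone. In Q111 alone were marked 59.5% of FRA2 events and 63.2% of JUND events in the stretch, against 25.7% of all listed FRA2 events and 24.4% of all listed JUND events. Of the FRA2 events past the 2-fold limit on the Q111 side, only 13297556, 22662972, 22663089, 23034950 and 23511892 were marked present in both lines. Of such JUND events, only 13314799 and 23296307 were so marked. The others were listed through Q111 alone, the line in which they are high, so their listing and their call are not separate evidence.

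Taken bin by bin, the lower part of the stretch was mixed. The bin from 12 Mb, covered for 0.2 Mb, had 1 FRA2 event with 29 reads in Q111 and 74 in Q7, 2.61-fold lower in Q111 (1.69 to 4.20), and no JUND event. From 13 to 14 Mb there were 6 FRA2 events with 263 reads in Q111 and 200 in Q7, 4 of them at least 2-fold higher and 1 lower in Q111, and 4 JUND events with 124 reads in Q111 and 77 in Q7. Between 14 and 17 Mb 5 FRA2 events were listed, with 23 to 38 reads in Q111 and 5 to 25 in Q7, each higher in Q111, and neither JUND nor SOX2 was listed there.

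The short stretch around 18 Mb went the other way. FRA2 at 17994162 counted 5 reads in Q111, against 100 in Q7, 18.9-fold lower in Q111 (8.56 to 65.0). JUND 5 bp away counted 4 in Q111, against 33 in Q7, 7.83-fold lower (3.08 to 33.7). The FRA2 events at 17991400 (9 reads in Q111, 33 in Q7), 18057841 (8 and 33 in the same order) and 18066931 (5 and 31) were 3.64-fold, 4.07-fold and 5.91-fold lower in Q111. These 4 were the FRA2 events with the farthest intervals on the Q7 side. SOX2 events lay 8 bp from the first of them, at 17994170 with 21 reads, and 3 bp from the one at 18057841, with 39 reads. The control reads at these 4 events were 0 to 3.1 in Q111 and 1.2 to 4.8 in Q7.

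Between 20 and 23 Mb, a window picked after the values were seen, the log2 fold of every FRA2 and JUND event was above 0. With scaling by control reads it was above 0 at 32 of 33 FRA2 and 15 of 17 JUND events. Over the whole tables it was above 0 at 32315 of 64579 FRA2 and 21108 of 46583 JUND events. In the window only FRA2 at 22161381, 22268905, 22656311, 22662972 and 22663089 and JUND at 22268950 and 22663047 were marked present in both lines. The others were marked in Q111 alone, so their sign and their listing are not separate evidence. The bin from 20 to 21 Mb had 5 FRA2 events with 723 reads in Q111 and 59 in Q7, an 11.9-fold higher sum, and 4 JUND events with 401 reads in Q111 and 19 in Q7, 20.1-fold higher. Much of these sums came from 1 site near position 20572986. Without it, the bin had 3 FRA2 events with 154 reads in Q111 and 41 in Q7, 3.64-fold higher, and 2 JUND events with 47 in Q111 and 10 in Q7, 4.47-fold higher. Each event of the bin was at least 2-fold higher in Q111. Between 21 and 22 Mb all 3 FRA2 events (155 reads in Q111, 49 in Q7) and both JUND events (46 in Q111, 11 in Q7) were also past the limit. From 22 to 23 Mb 17 of 25 FRA2 events were at least 2-fold higher and none lower in Q111, with 1289 reads in Q111 and 470 in Q7. In that bin 8 of 11 JUND events were higher and none lower (446 reads in Q111, 176 in Q7). The last bin, 0.6 Mb long, was more even. It had 13 of 29 FRA2 events higher and 1 lower, with 1932.8 reads in Q111 and 1336.8 in Q7, and 5 of 16 JUND events higher and 1 lower, with 869 reads in Q111 and 656 in Q7.

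**Figure D3:**
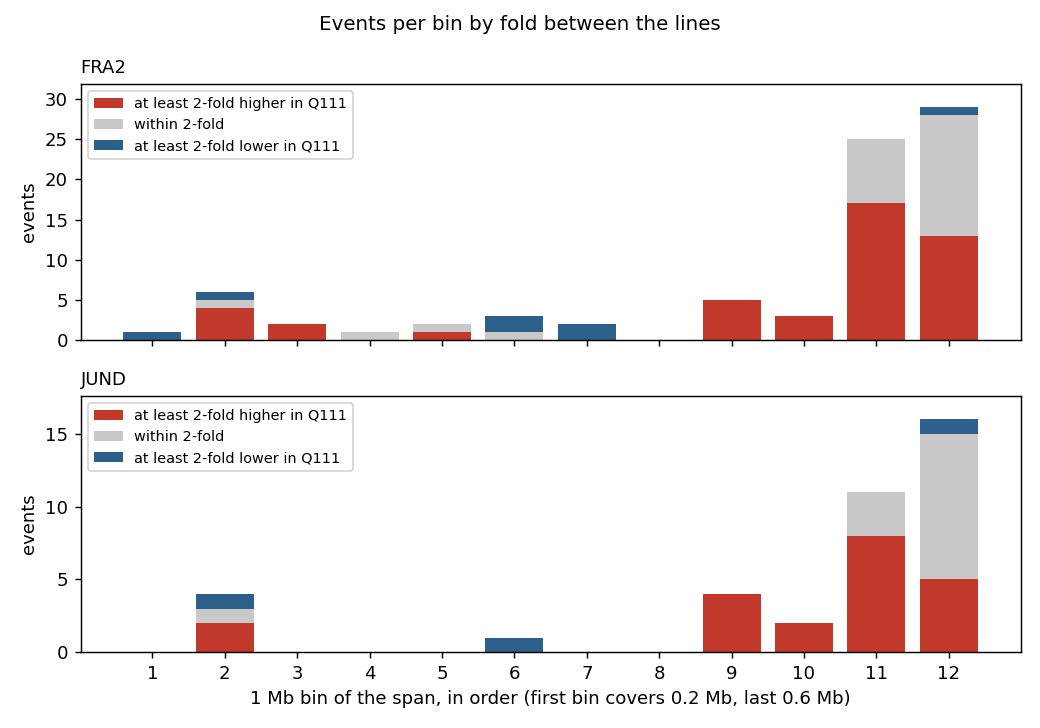
Number of events in each 1 Mb bin of the stretch, in order, divided into those at least 2-fold higher in Q111 (red), within 2-fold (grey) and at least 2-fold lower in Q111 (blue), FRA2 above and JUND below. Blue parts stand mainly in the first 7 bins, and bins 9 and 10 are entirely red in both tables.

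The strongest contrast lay in a group of events near position 20572986. FRA2 there counted 438.8 reads in Q111, against 10.6 in Q7, 38.3-fold higher (21.4 to 78.0), and was also the FRA2 event of the stretch with the most reads. At 20572653, 333 bp away, FRA2 had 130.2 reads in Q111, against 7.4 in Q7, 16.0-fold higher (8.49 to 45.6). JUND at 20572962 had 235.3 reads in Q111, against 7.2 in Q7, 29.1-fold higher (15.3 to 80.3). JUND at 20572675 had 118.7 reads in Q111, against 1.8 in Q7, a ratio of 49.3 (15.3 to 473). Control reads at these 4 events were 0 to 1.1 in Q111 and 1.2 to 4.8 in Q7, so in Q7 the IP reads were within a few reads of the control. A further pair lay 5626 bp below. There FRA2 (20567027) counted 36 reads in Q111, against 11 in Q7, and JUND (20566982) counted 24 in Q111, against 2 in Q7. No SOX2 event lay within 1 Mb of the group, the nearest being at position 22161476.

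Other events with the farthest intervals on the Q111 side were spread over the upper end. Neighbouring FRA2 events at 22652653 (85 reads in Q111, 5.2 in Q7) and 22652498 (79 in Q111, 6.8 in Q7) were 14.5-fold (6.79 to 52.0) and 10.5-fold higher (5.06 to 28.1), and the JUND event between them at 22652596 had 64 reads in Q111, against 8 in Q7, 7.22-fold higher. FRA2 at 23349971 had 43 reads in Q111, against 3 in Q7, a log2 fold of 3.59 with a fold range of 4.44 to 70.0. JUND at 22494863 had 42 reads in Q111, against 5 in Q7, 7.35-fold higher (3.17 to 25.9). JUND at 21469218 had 23 reads in Q111, against 1 in Q7, a ratio of 14.9 whose interval runs from 3.55 to 901. At this depth, single-digit counts in Q7 leave the size of a fold wide.

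The remaining events with the most reads differed less. FRA2 at 23511828 had 233.5 reads in Q111, against 131.5 in Q7 (1.72-fold, 1.38 to 2.14), FRA2 at 23296306 had 208.9 in Q111 and 142.8 in Q7 (1.42-fold, 1.14 to 1.76), and FRA2 at 22663089 had 198.4 in Q111 and 94.1 in Q7 (2.04-fold, 1.59 to 2.64). FRA2 at 23378479 went the other way, with 126.5 reads in Q111 and 166.5 in Q7, 1.36-fold lower in Q111 (1.07 to 1.73). Among JUND events, 23511778 had 167.5 reads in Q111, against 112.7 in Q7 (1.41-fold, 1.11 to 1.81), while 22663047 had 86 in Q111 and 62 in Q7, with an interval that includes 1 (0.94 to 1.86). JUND at 23378496 had 84 reads in Q111, against 138 in Q7, 1.72-fold lower in Q111 (1.31 to 2.29), and at 23382075 it had 85.8 in Q111 and 118.5 in Q7, 1.45-fold lower (1.08 to 1.93). Scaling by control reads put JUND at 23511778 and 22663047 on the other side, with log2 folds of -0.17 in place of 0.50 and -0.27 in place of 0.40. It also took JUND at 23378496 and 23382075 past the 2-fold limit, with log2 folds of -1.45 and -1.20. Of the 9 FRA2 events with 200 reads or more over both lines, 4 were at least 2-fold higher in Q111 (44.4%) and none lower. Of the 36 with 50 to 200 reads, 19 were higher (52.8%) and 3 lower, and of the 34 with fewer than 50 reads, 22 were higher (64.7%) and 4 lower. Over all listed FRA2 events 24.2% were higher, and shares by read class over the whole table were not computed.

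The other events with fewer reads in Q111 past the limit stood near the borders or beside SOX2. FRA2 at 13298487 had 46 reads in Q111, against 100 in Q7, and JUND 5 bp away at 13298492 had 12 in Q111 and 26 in Q7, both 2.23-fold lower. JUND at 23379389 had 9 reads in Q111, against 32 in Q7, 3.60-fold lower (1.74 to 8.90). FRA2 at 23565968, the last event in the stretch, had 11 reads in Q111, against 28 in Q7, 2.56-fold lower. The first FRA2 event above the stretch, at 23612087, had 26 reads in each line, and the last one below it, at 12778150, had 53 in Q111 and 47 in Q7. The first JUND event in the stretch (13166905) counted 31 reads in Q111 and 11 in Q7, and the last one below it (12778736) counted 18 in Q111 and 22 in Q7. At the upper border JUND had 52.5 in Q111 and 25.3 in Q7 at the last event inside (23511916) and 26 in Q111 and 9 in Q7 at the first one outside (23603571).

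Summed over the stretch, control reads at the listed events were lower in Q111, while IP reads were higher. Below 20 Mb the control ratio at FRA2 events was 0.82, with 510 IP reads in Q111 and 563 in Q7. In the bins from 12, 16 and 17 Mb the FRA2 control was higher in Q111, with ratios of 1.33, 1.29 and 1.62. At FRA2 events of the stretch the control averaged 2.74 reads in Q111 and 4.71 in Q7, a ratio of 0.58 for the sums, against ratios of 1.30 over the rest of chromosome 15 and 1.33 over the other chromosomes. At JUND events it averaged 2.95 reads in Q111 and 4.93 in Q7, a ratio of 0.60, against 1.64 and 1.67. With the stretch widened by 0.5 Mb at each end the ratio was 0.94 at JUND events and 0.75 at FRA2 events. The Q111 control was below the Q7 control at 60 of 79 FRA2 events (75.9%), against 42.6% over the rest of chromosome 15. It was 0 at 10 FRA2 events in Q111 and at none in Q7. In the bin from 22 to 23 Mb the FRA2 control came to 48.5 reads in Q111 and 108 in Q7, a ratio of 0.45. Of the 88 bins of chromosome 15 with at least 5 FRA2 events, 1 had a lower ratio, as had 32 of 2011 such bins over all chromosomes. It was the lowest ratio among the ranked bins of the stretch. A higher median FRA2 log2 fold than in this bin was seen in 4 of the 88 bins and in 103 of the 2011. With control reads subtracted from IP reads the median log2 fold was 1.46 for FRA2 and 1.76 for JUND, larger than without. The part of the control in the IP difference was not tested. The deposited q-values set IP against control, so the listing of an event can itself depend on its control reads. Events marked present in Q111 alone were 59.5% (FRA2) and 63.2% (JUND) in the stretch, against 25.7% and 24.4% of all listed events. The control ratios and bin ranks were not matched for these marks, and the part of the listing in them was not tested. After division by the step between low values, paired FRA2 and JUND events had equal control reads at 26 of 32 pairs in Q111 and at 18 of 32 in Q7, so the 2 ratios are not counted as separate measurements.

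**Figure D4:**
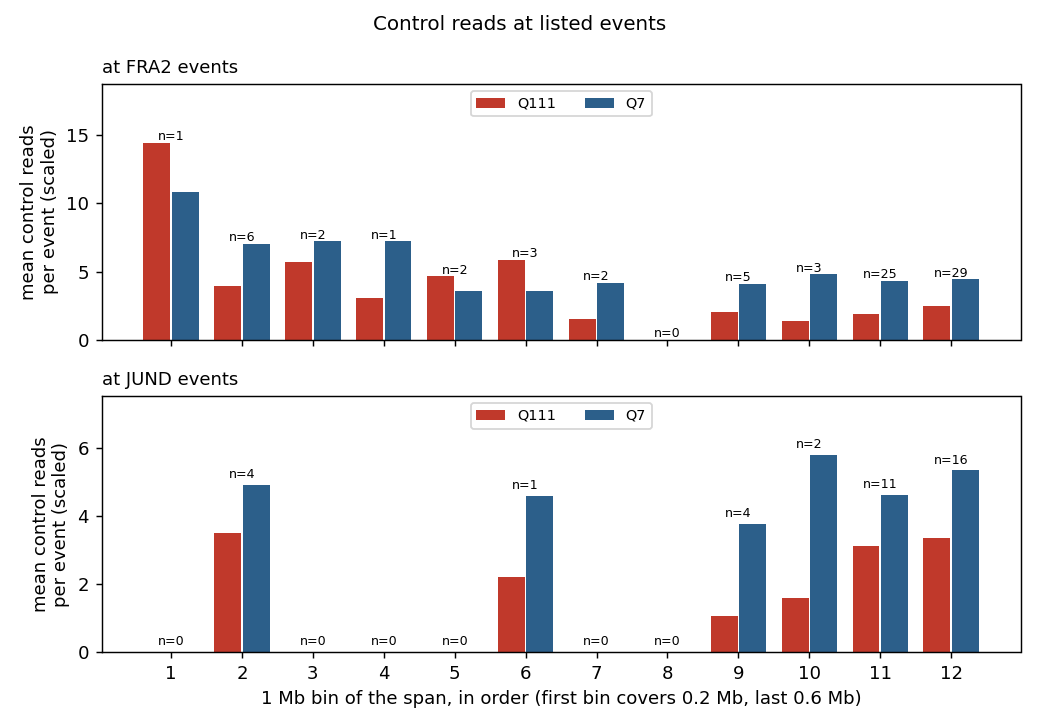
Mean control reads per listed event (scaled by the authors) in each 1 Mb bin of the stretch, Q111 in red and Q7 in blue, with the number of events above each pair of bars. Q111 bars are below Q7 bars in bins 9 to 12 in both tables, and the overall means at FRA2 events are 2.74 in Q111 and 4.71 in Q7. In the FRA2 panel, Q111 bars stand above Q7 bars in some of the earlier bins.

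FRA2 and JUND often lay at the same positions. A JUND event was found within 100 bp of 35 of 79 FRA2 events (44.3%, Wilson interval 33.9 to 55.3%), against 59.5% over the rest of chromosome 15 and 55.0% elsewhere. The share followed the reads. It was 18.8% (10.2 to 31.9%) for the 48 FRA2 events below the median reads of the table and 83.9% (67.4 to 92.9%) for the 31 at or above it, against 31.2% and 83.0% over the rest of the chromosome. Conversely, FRA2 was listed within 100 bp of 32 of 38 JUND events (84.2%, 69.6 to 92.6%), against 72.6% and 75.8%. The interval includes both of these shares.

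Each of the 32 mutually nearest pairs had the same direction for both proteins, but only 27 did when the libraries were scaled by control reads. These folds come from the contrast that chose the stretch, and the FRA2 and JUND libraries of a line come from the same cells. Both proteins were at least 2-fold higher in Q111 at 15 pairs and at least 2-fold lower at 2, those at 13298487 and 17994162. At 7 pairs neither passed the limit, at 8 only 1 did, and none had opposite calls. Over the other chromosomes the sign was shared at 84.9% of 32725 pairs. Of those, 5198 were higher in Q111 for both proteins, 5924 were lower for both and 5 had opposite calls. The lack of opposite calls is therefore not particular to the stretch. Paired events were a median of 20 bp apart and 61 bp at most. FRA2 had more reads than JUND at 28 of the pairs in Q111 and at 26 in Q7, with median ratios of 1.54 in Q111 and 1.65 in Q7.

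SOX2, mapped in Q7 alone, had 21 to 236 reads at its 15 events, with a median of 37, against 33 over the rest of its table. SOX2 control reads averaged 4.75 in the stretch and 4.31 elsewhere. The event at 23511827 had 236 SOX2 reads and 5.4 control reads and ranked 168 in the whole table. It lay 1 bp from the FRA2 event at 23511828 and 49 bp from JUND at 23511778. At 23382096 there were 121 SOX2 reads, 37 bp from FRA2 and 21 bp from JUND. The events at 23378552, 22268882 and 13298477 had 66, 63 and 44 reads, and each had FRA2 and JUND within 100 bp. In all 12 of 15 SOX2 events (80.0%, Wilson interval 54.8 to 93.0%) had FRA2 or JUND within 100 bp, against 72.1% over the rest of chromosome 15 and 69.7% elsewhere, shares inside that interval. The others were at 22514643, 22660081 and 23296425, the last with both AP-1 subunits at 118 and 119 bp.

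Chained within 1 kb, the events of the 3 tables formed 71 sites. FRA2 stood alone at 36 sites (50.7%, Wilson interval 39.3 to 62.0%), against 27.8% of sites over the rest of chromosome 15 and 32.0% elsewhere. All 3 proteins met at 11 sites (15.5%, 8.88 to 25.7%), against 27.8% and 23.4%. FRA2 and JUND without SOX2 made up 18 sites (25.4%), close to the 26.3% and 26.8% found outside. JUND alone made up 3 sites, SOX2 alone 2 and FRA2 with SOX2 1. The sites at 23511701 to 23511916 and at 23381931 to 23382326 each held 3 FRA2, 2 JUND and 1 SOX2 event, and the site at 23378479 to 23379389 held 2 events of each protein.

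AP-1 events beside SOX2 had a lower median log2 fold than the remaining ones. They included the lowest log2 folds of the stretch, -4.24 for FRA2 and -2.97 for JUND. The 20 FRA2 events with a SOX2 event within 1 kb had a median log2 fold of 0.28, with 4 at least 2-fold higher and 3 lower in Q111, against 1.49 for the 59 others, with 41 higher and 4 lower. For JUND the medians were 0.40 over 15 events beside SOX2 (1 higher, 3 lower) and 1.51 over 23 others, of which 20 were higher and none lower, the lowest log2 fold being 0.77. Outside the stretch the medians were lower in both classes. On the rest of chromosome 15 they were -0.52 beside SOX2 and 0.51 away from it for FRA2, and -0.48 and 0.32 for JUND. There 89 of 1746 FRA2 events beside SOX2 were at least 2-fold higher and 581 lower, against 893 and 359 of 2408 others. For JUND 90 of 1868 were higher and 616 lower, against 500 and 255 of 1469 others. A gap between the classes was thus also present outside the stretch. In the stretch, events beside SOX2 also held more reads, with a median of 147.4 FRA2 reads over both lines against 46 for the others. Since SOX2 was mapped in Q7 alone, sites of Q111 are not represented. The part of reads and of this choice of line in the contrast was not tested.

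**Figure D5:**
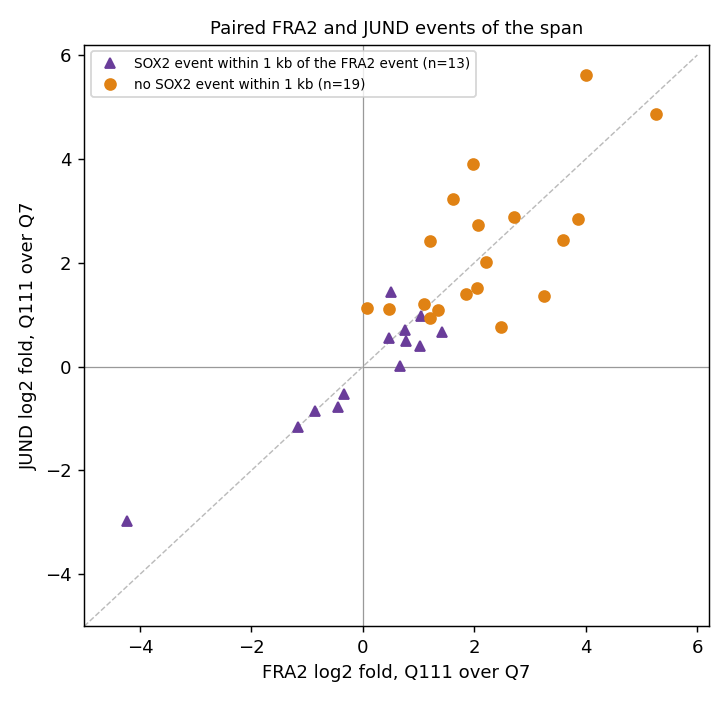
JUND log2 fold against FRA2 log2 fold (both Q111 over Q7) at the 32 paired events of the stretch, with triangles for the 13 pairs that have a SOX2 event within 1 kb of the FRA2 event and circles for the 19 others, and a dashed line at equal folds. The 15 pairs past the 2-fold limit for both proteins on the Q111 side are all circles, and all 5 pairs with a negative FRA2 fold are triangles.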

How the data were processed

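The members, tests and lists were chosen with earlier results of these data known. Reads were aligned with Bowtie 0.12.7 to mm9, per the submitters' processing notes. Neither version nor settings of the event caller are stated in the labels or headers. Replicates 1 and 2 were pooled by the authors, per the labels. The deposited IP columns hold expected counts, reads assigned to each event and not scaled, some of them fractional. They were rounded for intervals only. The deposited Control columns hold a signal, control reads times a scaling factor, and the headers name no control library. The deposited q-value of IP against control, as −log10, and the present marks of the authors were used in alternatives and descriptions. A further 22 value columns were not used.

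The library factor was the median log2 ratio over events marked present in both lines. All events passed the minimum of 20 reads. The 2-fold limit alone decides a call, and intervals are at 95%. Named events were, for FRA2 and JUND, the 5 with the most reads and the 5 per direction with the farthest interval among those past the limit (3 for JUND lower in Q111), the top 5 of SOX2 by reads, and the events at the borders. Others were named after their values were seen. Fold and interval code was tested on simulated data. Python 3.11.15, numpy 2.4.6, scipy 1.17.1 and pandas 2.3.3 were used.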

Additional observations from a re-analysis of the deposited data

How the results depend on the processing

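With 1 pooled sample per group there is no spread between replicates, and the depth of 20 or more reads per event limits single folds. No paired analysis was possible because each title pools both replicates into 1 sample. With at least 50 reads required, 45 FRA2 events remained, 23 higher and 3 lower in Q111, and 18 JUND events, 6 higher and 0 lower. A 4-fold limit left 17 FRA2 events higher and 3 lower, and 11 JUND events higher and 1 lower. Subtracting control reads moved the median log2 fold to 1.46 (FRA2) and 1.76 (JUND). Scaling by control reads gave JUND 11 higher, 6 lower and a median of 0.45, and turned the JUND log2 fold at position 23511778 to -0.17 and that at 22663047 to -0.27; FRA2 then had 31 higher and 9 lower. Widening the stretch by 0.5 Mb at each end gave 5 JUND events lower in Q111 and control ratios of 0.75 (FRA2 events) and 0.94 (JUND events). The cause of these shifts was not tested. The signs of pairs, the direction of events from 20 to 23 Mb and the sums from 20 to 21 Mb were examined under other settings after the data had been seen. All other alternatives for counts, medians, shares, pairs and SOX2 density stayed within 1.5 times the count or within the counting interval, 72 of 88 in all. Some of these could not change a value. Dropping the minimum of 20 reads, or leaving out events with 40 or more control reads, affected no event of the stretch.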

Other observations

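Beyond the upper border the lean towards Q111 continued. In the next 0.5 Mb, 10 of 11 FRA2 events and 3 of 4 JUND events were at least 2-fold higher in Q111 and none lower. FRA2 at 23834155 had 295.2 reads in Q111 and 6.6 in Q7 (40.3-fold, 19.6 to 102), and JUND at 23834089 had 227 in Q111 and 11 in Q7 (18.8-fold, 10.8 to 39.9). In the 0.5 Mb below the lower border 6 of 15 FRA2 events were higher and 2 lower, and 2 of 12 JUND events were higher and 2 lower. Over all listed events, 24.2% of FRA2 and 18.7% of JUND events were at least 2-fold higher in Q111, and 22.6% and 25.0% lower. The JUND share higher below the lower border was thus near that of all JUND events. Control reads at the FRA2 events averaged 2.90 in Q111 and 3.93 in Q7 above the upper border, and 8.81 in Q111 and 6.08 in Q7 below the lower one. These positions lie outside the stretch, and their values were seen before they were picked.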
